A study of Mus musculus with 6 samples.

Results

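The genes described are 9 transcripts that mark macrophages, measured in RNA that co-precipitated with the RNA-binding protein LARP1 from mouse dorsal root ganglia (DRG), in which the cell bodies of sensory neurons lie. They were taken by Ensembl identifier from a table of 16976 genes and are C1qa, C1qb, C1qc, Lyz2, Cd68, Aif1, Tyrobp, Fcer1g and Ctss. All 9 identifiers were in the table, and 7 of them had reads. The study compared wild-type mice with sciatic nerve injury, labelled injured, with wild-type mice without it, labelled uninjured. Each group has 3 libraries; the strain, age, sex, type of lesion and time after it were not stated in the labels. All 6 libraries are LARP1 precipitates, so each value is a level in the precipitate and not an enrichment over the ganglion's RNA.

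Macrophages live among the neuron cell bodies of the ganglion and are known to become more numerous there after a peripheral nerve is injured. C1q, made of chains encoded by C1qa, C1qb and C1qc, recognises targets for the classical complement pathway and is made largely by tissue macrophages. Tyrobp (DAP12) and Fcer1g (the Fc receptor gamma chain) are membrane adaptors that carry immunoreceptor tyrosine-based activation motifs and signal for receptors on myeloid cells. Lyz2, Cd68 and Ctss encode lysozyme, a lysosomal membrane glycoprotein and the lysosomal protease cathepsin S, and Aif1 encodes the actin-binding protein IBA1. LARP1 is known for binding mRNAs that begin with a C followed by a run of C and T bases, the terminal oligopyrimidine tract.

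The injured libraries held 211337 to 211879 counts and the uninjured ones 116186 to 116608. Libraries with the same label agreed almost within counting noise: the variance between them was 1.16 times that of counting over 3827 genes in the uninjured group and 1.12 times over 6152 genes in the injured group. Nothing in the labels says that they came from separate animals, so each group was summed and taken as 1 sample. Levels are CPM, a gene's counts per 1000000 counts of the column total. They have 95% exact Poisson intervals, while ratios of injured to uninjured CPM have 95% exact Clopper-Pearson intervals. These intervals cover counting error only, since PCR reads without molecular identifiers are not independent molecules. With 1 sample per group there is no check against replicates, and the effect of injury cannot be told apart from that of a batch. In place of 0, a floor of 3 counts over the group was used, which is 8.60 CPM in the uninjured and 4.73 CPM in the injured group.

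Summed, the 9 genes were a small part of the precipitate and a larger one after injury. They held 17, 13 and 15 counts in the 3 uninjured libraries, against 99, 84 and 80 after injury. In CPM, the uninjured libraries were at 146, 111 and 129 and the injured libraries at 467, 397 and 378. The groups did not overlap, and the lowest injured library was above the highest uninjured one. Summed by group, the level was 129 CPM (94.0 to 173) without injury and 414 CPM (366 to 468) with injury, a ratio of 3.21 (2.34 to 4.51). In this bulk material, more macrophages, more of these RNAs per cell and a larger precipitated part of them cannot be told apart.

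**Figure D1:**
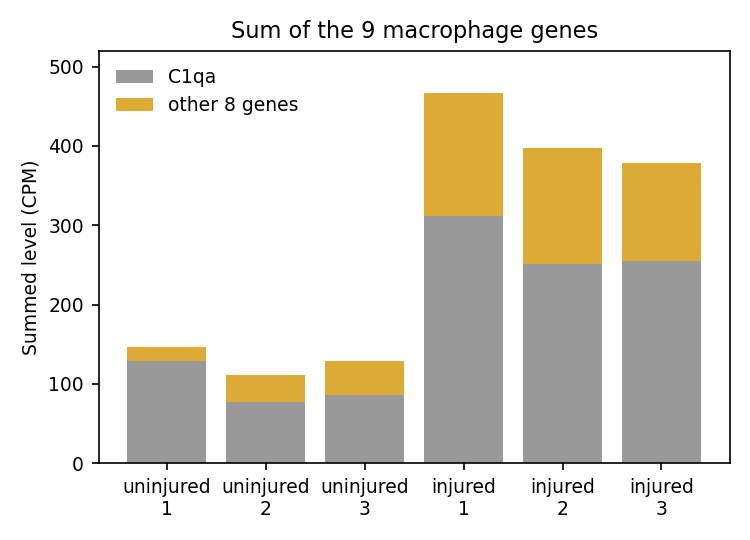
Summed level of the 9 macrophage genes in each library, in CPM of the library total, with C1qa in grey and the other 8 genes in yellow. The 3 injured libraries lie between 378 and 467 CPM, above the 3 uninjured libraries at 111 to 146 CPM, and both parts of the bar are taller after injury.

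C1qa supplied most of these counts, and the difference did not rest on it alone. It held 34 of the 45 counts of the set in the uninjured group (75.6%, exact 95% interval 60.5% to 87.1%) and 173 of 263 in the injured group (65.8%, 59.7% to 71.5%). Without C1qa, a subset chosen after the data were seen, the other 8 genes summed to 11 counts in the uninjured and 90 in the injured group, a ratio of 4.50 (2.40 to 9.34). The 6 genes outside the C1q family gave 4 and 33 counts, a ratio of 4.54 (1.61 to 17.6). Shares of counts are not levels per transcript length, and levels of different genes were not compared with each other.

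Of the C1q chains, C1qa and C1qc were higher in the injured reads beyond counting error, and C1qb was not separated from no difference. C1qa (ENSMUSG00000036887) had 15, 9 and 10 uninjured counts, or 129, 77.2 and 86.1 CPM. In the injured libraries it had 66, 53 and 54 counts, or 312, 251 and 255 CPM. Every injured library was above every uninjured one, and the first library was the highest in both groups. Summed, the uninjured level was 97.4 CPM (67.5 to 136) and the injured level 273 CPM (234 to 316), giving a ratio of 2.80 (1.93 to 4.17). Of the 3158 genes kept by a filter on low counts (edgeR's filterByExpr), 89.6% had a ratio below that of C1qa, and their quartiles were 0.728 and 1.67.

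C1qc (ENSMUSG00000036896) was seen in the injured precipitate only. It had 0 counts in each uninjured library and 10, 9 and 15 in the injured libraries, or 47.2, 42.6 and 71.0 CPM. The injured level was 53.6 CPM (37.1 to 74.9), at least 6.23-fold higher than the uninjured floor if the injured level is taken at its measured value. When counting error in either group is allowed for, the lower limit of the ratio was 4.80. Without 1 of the uninjured libraries, the bound against the floor was 4.15 to 4.16, within the interval of C1qa. C1qc gave 0 of the 45 set counts without injury (the floor of 3 counts is 6.67% of them, and the exact 95% upper limit is 7.87%) and 34 of 263 with injury (12.9%, 9.12% to 17.6%). Among the 3444 genes with at least as many injured counts as C1qc, 1.25% had no uninjured count. These include genes with many more reads, in which 0 is less likely, so this is not the share at a like level.

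C1qb (ENSMUSG00000036905) had 2, 4 and 1 counts without injury and 11, 7 and 5 after it. These are 17.2, 34.3 and 8.61 CPM without injury and 51.9, 33.1 and 23.7 CPM with injury. The groups overlap, since uninjured library 2 lies above injured libraries 2 and 3. The ratio was 1.81 (0.751 to 4.99), an interval that holds both no difference and the ratio of C1qa. Without the second uninjured library it was 2.81. The 3 genes lie in 1 block on mouse chromosome 4, in the order C1qb, C1qc, C1qa with 0 other genes of the RefSeq table (GRCm38.p6) inside it.

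**Figure D2:**
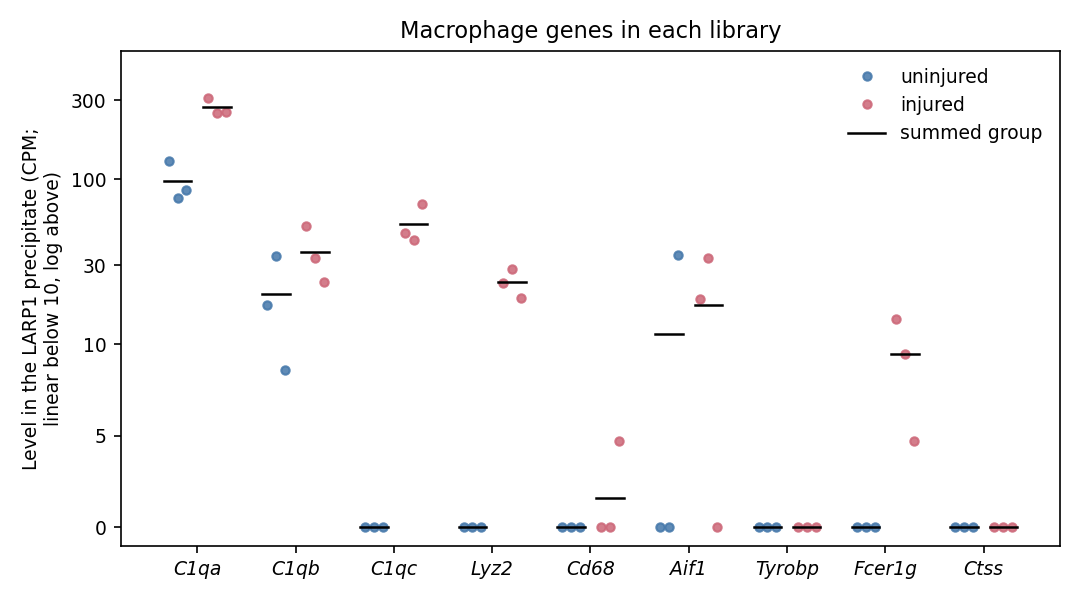
Level of each of the 9 genes in each library, in CPM (axis linear below 10 and logarithmic above); blue points are uninjured, red points injured libraries, and black lines the summed groups. C1qa, C1qc, Lyz2 and Fcer1g have every injured point above every uninjured point, C1qb and Aif1 overlap, and Tyrobp and Ctss lie at 0 throughout.

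Of the lysosomal genes, Lyz2 was seen after injury, and Cd68 and Ctss were at or near 0 in both groups. Lyz2 (ENSMUSG00000069516), which encodes the bacteria-degrading lysozyme of myeloid cells, had 0 counts in each uninjured library and 5, 6 and 4 in the injured libraries. Its injured level was 23.6 CPM (13.2 to 39.0), at least 2.75-fold higher than the uninjured floor, and the lower limit of the exact interval was 1.97. Among the 6152 genes with at least the 15 injured counts of Lyz2, 4.1% had no uninjured count. Genes with many more reads are among these too, so the share is not that of genes at a like level. Without 1 of the uninjured libraries, the floor of 3 counts stands for a higher level and the bound was 1.83. Reads of Lyz2 can be shared with its neighbouring paralogue Lyz1, whose first 50 transcribed bases match those of Lyz2 at 49 positions, so its count is uncertain.

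Cd68 (ENSMUSG00000018774), a glycoprotein of lysosomes widely stained to show macrophages, had 1 count in all, in injured library 3. That is 1.58 CPM (0.0399 to 8.78) with injury, under the uninjured floor, and no ratio is given. Ctss (ENSMUSG00000038642), the protease cathepsin S that cuts the invariant chain during antigen processing, had 0 counts in all 6 libraries. Its RNA was therefore not detected at this depth. The exact 95% upper limits of its level were 10.6 CPM without and 5.81 CPM with injury.

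Aif1 (ENSMUSG00000024397) gave no stable direction. The uninjured libraries had 0, 0 and 4 counts, or 34.4 CPM in the last. The injured libraries had 4, 7 and 0 counts, or 18.9 and 33.1 CPM in those with reads. Each group thus holds a library without a read and another at 34.4 or 33.1 CPM, and the groups overlap fully. By group, the levels were 11.5 CPM (3.12 to 29.3) without injury and 17.3 CPM (8.65 to 31.0) after it, giving a ratio of 1.51 (0.448 to 6.51). Leaving out 1 library moved it both ways, to 0.825 without injured library 2 and 2.27 without injured library 3. It was 1.01 without uninjured library 1 or 2, 1.44 without injured library 1 and at least 1.35 against the floor without uninjured library 3.

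The ITAM adaptors had few reads or none. Fcer1g (ENSMUSG00000058715) had 0 counts in each uninjured library and 3, 2 and 1 in the injured libraries, or 9.45 CPM (3.47 to 20.6) when summed. This lies just above the uninjured floor of 8.60 CPM, at least 1.10-fold, and the lower limit of the exact interval was 0.648. Tyrobp (ENSMUSG00000030579), the adaptor of the microglial and macrophage receptor TREM2, had 0 counts in all 6 libraries, as Ctss did. At this depth neither adaptor can be said to differ between the groups. Of the 9 markers, Cd68, Tyrobp and Ctss thus had 1 count or none in all libraries together.

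**Figure D3:**
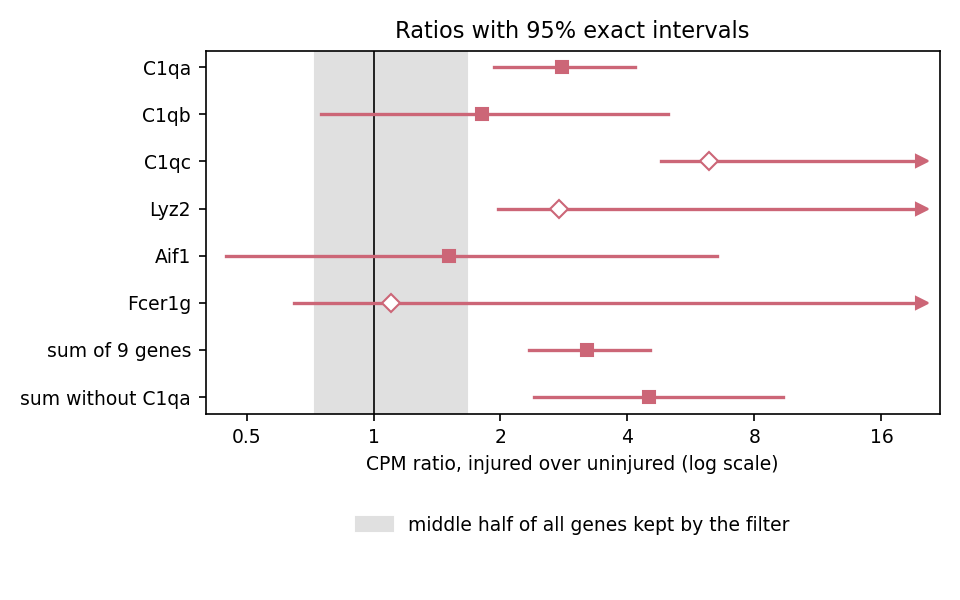
Ratio of injured to uninjured CPM on a log axis for the 6 genes that have one, for the sum of all 9 and for the sum without C1qa, with 95% exact intervals. Open diamonds are bounds against the floor of 3 uninjured counts and arrows have no upper limit; the grey band from 0.728 to 1.67 is the interquartile range of the genes kept by the filter, and the intervals of C1qb, Aif1 and Fcer1g include 1.

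The members leaned towards higher levels after injury. All 7 detected members had a higher CPM in the injured group, as did 58.7% of the 13236 genes with a count, but for Cd68 this rests on 1 read. In 4 of the 7 detected members (C1qa, C1qc, Lyz2 and Fcer1g) every injured library was above every uninjured one, against 24.2% of the genes with a count. In 0 of the 7 was the order reversed, against 13.2%. The injured libraries are deeper, so a gene with few reads is likelier to have 0 counts in the uninjured group. With bounds taken as values and filterByExpr not applied, 3 of the 6 genes with a ratio were past 2-fold higher (C1qa, C1qc and Lyz2) and 0 past 2-fold lower. A gene with no uninjured count has a ratio only if its bound lies above 1. C1qc, Lyz2 and Fcer1g therefore could not have come out lower, and Cd68 was left out. The counts past 2-fold and the median are thus partly set by this rule. Over the 11071 genes with a ratio by the same rule the shares were 23.4% and 18.0%. The median ratio of those 6 genes was 2.28, and that of the 11071 genes was 1.10; the other 3 members have no ratio.

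Only C1qa of the 9 genes passed filterByExpr, and it was past 2-fold higher, as were 18.2% of the 3158 genes kept, while 10.2% were past 2-fold lower. By the quasi-likelihood test of edgeR, at 0.05 after Benjamini-Hochberg adjustment, C1qa was called higher, as were 24.9% of the genes tested, and 22.1% were called lower. This test compares the reads of these 2 samples and not the conditions. Without a filter it tested the 7 members with a count and called C1qa, C1qc and Lyz2 higher. Of all 13236 genes, which include those that the filter drops, 7.16% were called higher and 4.4% lower. DESeq2, which tested 8618 genes, called C1qa and C1qc higher, against 9.29%, and 6.95% were lower. It did not call Lyz2 and did not test Cd68 or Fcer1g. With summed counts and an assumed coefficient of variation of 0.2 between animals, edgeR's exact test kept the call of C1qa, against 9.66% of genes called higher and 5.57% lower. With an assumed 0.4 it called none of the 9 genes, against 1.33% higher and 0.158% lower. No member was called lower in any of these tests.

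The transcripts' annotated first bases are shown because LARP1 is known to bind mRNAs by their 5′ end. RefSeq promoter windows (GRCm38.p6) were matched by symbol for 7 of the 9 genes, not for C1qa and Tyrobp. Each line gives 10 bases before and 20 bases from the start, with the first 5 transcribed bases in capitals; Lyz1 is added to show that it begins as Lyz2 does.
C1qb, chr4:136886181-136886210, minus strand: agagagggtcAGCCTgttgggccttgggag
C1qc, chr4:136892895-136892924, minus strand: tcacagctctGAAACagtatgttcctgtct
Lyz2, chr10:117282253-117282282, minus strand: ttctctagtcAGCCAgcagctgacccagcc
Lyz1, chr10:117292849-117292878, minus strand: ttctctagtcAGCCAgcagctgacccagcc
Cd68, chr11:69666151-69666180, minus strand: ggtgggattaTTTTAgttaagggaagtgag
Aif1, chr17:35176033-35176062, minus strand: cagttcctccATCCTattgtttccctgtca
Fcer1g, chr1:171234330-171234359, minus strand: gtggcaggaaGGAGGgaactgtggtcaggg
Ctss, chr3:95526776-95526805, plus strand: gaaagttcacTTCCTcattgtggatgcttc

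None of the 7 annotated starts was a C followed by at least 4 C or T bases. C1qb, Lyz2 and Aif1 begin with A, C1qc and Fcer1g with G, and Cd68 and Ctss with T, the first base of a run of 4 C or T bases in Cd68 and of 6 in Ctss. The share with such a start was 2.51% of all 32851 windows and 18.6% of the 70 windows of genes whose symbols mark cytosolic ribosomal proteins, the best known mRNAs of this kind. That last share shows how seldom the annotated base meets the rule even there. The windows thus describe the annotation and say nothing of which start the precipitated RNAs used.

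C1qb, C1qc and Lyz2 share a short motif upstream of their starts. AGGAAGT lies in the consensus of sites bound by PU.1, the ETS factor that specifies the macrophage lineage, and it was searched on both strands of the 250 bases before each start. Within those bases it was found in these 3 of the 7 windows and in 7.69% of all windows. Sites that cross a start were not counted, here or in the shares of all windows. The motif was chosen after the data were seen. The shorter GAGGAA, which overlaps it, was in 5 of the 7 (Aif1, C1qb, C1qc, Cd68 and Ctss) and in 23.3% of all windows. In the 250 bases searched, GAGGAAGT, which contains both, was in C1qc alone and in 2.44% of all windows. The bases printed above for Ctss read ACTTCCTC across the start, which is GAGGAAGT on the opposite strand. Ctss thus has AGGAAGT and GAGGAAGT at its start, outside the stretch searched. C1qc and Lyz2 had reads after injury only. Fcer1g and Cd68, whose 250 bases lack AGGAAGT, also had reads after injury only, 6 and 1 counts. C1qb, which has the motif, had reads in both groups, and Ctss, with the motif across its start, had 0 counts in all 6 libraries. A link between the motif and injury was not tested. In the 3 stretches below, capitals mark the motif, which lies on the opposite strand and so reads ACTTCCT.
C1qb, chr4:136886222-136886278, minus strand: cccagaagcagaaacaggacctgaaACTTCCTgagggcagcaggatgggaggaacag
C1qc, chr4:136893078-136893134, minus strand: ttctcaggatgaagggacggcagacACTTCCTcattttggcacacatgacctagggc
Lyz2, chr10:117282341-117282397, minus strand: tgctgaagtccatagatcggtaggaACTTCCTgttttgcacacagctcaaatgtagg

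The motif ended 46 bases before the start in C1qb, 188 in C1qc and 93 in Lyz2. A match of letters describes these windows; binding was not measured.

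The genes whose profile over the 6 libraries lay nearest to the mean profile of the set were ENSMUSG00000031166 and ENSMUSG00000029715, among the genes kept by the filter. Their distances were 0.300 and 0.323, taken as Euclidean distances of log2(CPM + 1) values centred by gene. The first had 2, 2 and 3 uninjured counts and 25, 20 and 15 injured counts, and the second had 2, 2 and 3 and then 17, 21 and 13. Both genes are low without injury and high with it, and in each the third injured library is the lowest of the injured ones. The mean profile of the set has these traits too, so they follow from the choice by likeness. They are given by identifier, since no table used here pairs identifiers of the count table with symbols. For the same reason, markers of neurons, glia and other immune cells were not analysed here, and their part in these values was not tested.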

How the data were processed

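RNA recovered with an anti-LARP1 antibody from DRG lysate was made into nanopore libraries with a cDNA-PCR barcoding kit, per the labels' protocols. The authors deposited estimated counts per gene, without normalization, made with minimap2, Salmon and build GRCm39 (mm39), per the submitters' processing notes. Versions, annotation release and filters used were not given in the sources used here. By estimation, Salmon divides reads among similar transcripts. All values were whole, 0 further columns were left unused, and groups came from sample titles.

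The rule for the genes gave identifiers with symbols; the members, gene lists and tests were chosen with earlier results of these data known. CPM, intervals and ratios were computed with scipy 1.17.1 on counts summed per group. Tests on all genes used edgeR 4.0.16 (TMM, filterByExpr, quasi-likelihood test), DESeq2 1.42.0 and limma 3.58.1 in R 4.3.3, checked on simulated data. All 9 genes were named, with the 2 nearest genes by profile in place of 3, since these have no symbol. Lists of other cell type and pathway markers were not used here, because no table pairs their symbols with identifiers. Same-numbered libraries did not deviate together (correlations of 0.0094, 0.0032 and -0.0314 over 3158 genes), so the numbers were not taken as pairs.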

Additional observations from a re-analysis of the deposited data

How the results depend on the processing

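The summed ratio of the 9 genes, 3.21, was 2.98 with TMM, 3.21 with DESeq2 size factors and 2.89 with upper-quartile factors. Leaving out 1 library gave 3.01 to 3.45, and leaving Lyz2 or Aif1 out of the sum, alternatives added after the data were seen, gave 3.03 and 3.38. The count of members past 2-fold higher, 1 with the filter, was 3 with no filter on low counts and 0 with a fold of 4. The count called higher by the test of reads, 1 in edgeR's fit, was 3 with no filter, 2 with DESeq2 and 0 with an assumed coefficient of variation of 0.4. Fewer genes reach the test with the filter, which only C1qa passed. With the replicate block it was 1, so the block did not change the call of C1qa, the only member tested. The count called was also 1 with each library left out, with limma-voom and with an exact binomial test of summed counts. With 0.5 counts added to each group, the ratios against 0 counts were 37.9 for C1qc, 17.0 for Lyz2 and 7.15 for Fcer1g, which depend on the amount added. Fcer1g has no ratio with upper-quartile factors, without 1 uninjured library or without the first injured library, where it falls under the floor. The count of annotated starts with a C and at least 4 C or T bases, 0, was also 0 when the C could lie within the first 5 bases, a rule met by 9.77% of all windows and 31.4% of those of ribosomal protein genes. Depth limits most members: 6 of the 9 had 6 or fewer injured counts or an interval of the ratio that includes 1.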
